A study of Mus musculus with 6 samples.

Results

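The nuclear genes of the mitochondrial respiratory chain and of ATP synthase were compared between RAW 264.7 cells and RAW 264.7 cells with an APOBEC1 knockout. The genes were taken by name from the deposited gene table. They were the rows starting with Nduf, Uqcr, Atp5 or Cox followed by a digit, with Sdha, Sdhb, Sdhc, Sdhd, Cyc1 and Cycs, and without names holding -ps. The rule took 103 of 24848 rows and used no measured value. RAW 264.7 is a macrophage-like mouse line that arose from a virus-induced tumour in a BALB/c mouse, and APOBEC1 is a cytidine deaminase that changes C to U in RNA. There were 3 wild-type libraries (WT) and 3 knockout libraries (KO), each from poly(A) RNA of its own plate of cells grown in high-glucose medium. The labels give neither the way the knockout was made nor the number of clones behind it, so the knockout and any other difference between the lines cannot be told apart. The p-values measure the spread between plates.

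The respiratory chain passes electrons from NADH and succinate to oxygen through complexes I to IV, with ubiquinone and cytochrome c as the mobile carriers. Complexes I, III and IV pump protons across the inner mitochondrial membrane, and ATP synthase uses the return flow to make ATP. Most subunits are encoded in the nucleus and imported, while mitochondrial DNA encodes a few hydrophobic core subunits. Macrophages are known to shift between respiration and glycolysis with their state of activation.

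A level is a read count scaled to the library total, the authors' CPM, and a group is given as mean ± SD of its 3 libraries. A log2 fold change is the KO minus the WT mean of log2(CPM + 0.5) with its SE, a scale on which changes of weakly expressed genes look smaller. Testing with limma took in each gene that reached 1 CPM in 3 or more of the 6 libraries, which left 10614 genes. Those whose Benjamini-Hochberg adjusted p over all of them was under 0.05 were called higher or lower in KO. Positions are those of the mouse build mm10, and levels of different genes are compared only as CPM per kilobase of exons.

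Between 50493447 and 70411383 reads per library had been assigned to genes. Apobec1 itself was listed at 373, 431 and 396 CPM in WT and at 339, 340.1 and 361 CPM in KO. Its log2 fold change was -0.20 ± 0.07 (adjusted p = 0.0663), and since the labels do not say what was changed in the gene, its mRNA level does not check them. All 8 macrophage markers found in the table passed the filter, with a summed level of 3486 to 3598 CPM in WT and 3720 to 4133 CPM in KO. Of these Lyz2 rose (708 to 1238 CPM), Adgre1 and Fcgr1 fell by 0.50 and 0.30 on the log2 scale, and the 7 without Lyz2 summed to 2785 to 2933 CPM in WT and 2581 to 2782 CPM in KO. Of 12 markers of other cell types none passed it, and 6 (Col1a1, Krt18, Cd3e, Hba-a1, Mpo and Elane) were at 0 throughout. Their summed level was 0.297 to 0.416 CPM in WT and 0.240 to 0.301 CPM in KO. Elane lies in a run of neighbouring chromosome 10 genes all listed at 0, described below, so its 0 is not read as a level.

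Most respiratory chain and ATP synthase mRNAs were not called between the genotypes. Of the 103 genes, 92 passed the filter and 12 were called, 10 higher and 2 lower in KO. This is 13.0% of those tested, against 30.4% of all tested genes. Higher calls made up 10.9% of the tested members and 13.5% of all tested genes, and lower calls 2.17% against 16.9%. The median log2 fold change was 0.03 over the 92 tested members and -0.02 over all tested genes, and 53 of the 92 had a positive value. No tested member changed by a log2 value of 1 or more. CPM of bulk RNA is a share of the library, so fewer cells with an mRNA and less of it per cell cannot be told apart. WT and KO values were without overlap for 26 of the 92 (28.3%), against 46.4% of all tested genes. For the 80 members not called, the log2 fold change lay between -0.37 and 0.25, and for 74 of them the 95% interval stayed within 0.5 of 0 in either direction.

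The 10 that rose were Ndufs3, Ndufa8, Ndufa12, Ndufaf1 and Ndufaf5 of complex I, Sdha of complex II, Uqcrb of complex III, Cycs, and Atp5c1 and Atp5g3 of ATP synthase. The 2 that fell were Cox7a2l, described as a supercomplex factor of complexes III and IV, and Cox14, a complex IV assembly factor. Of the nuclear complex IV subunits 0 were called, and 2 without WT replicate 1. Of the 10 that rose, 6 lie on chromosome 2.

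**Figure D1:**
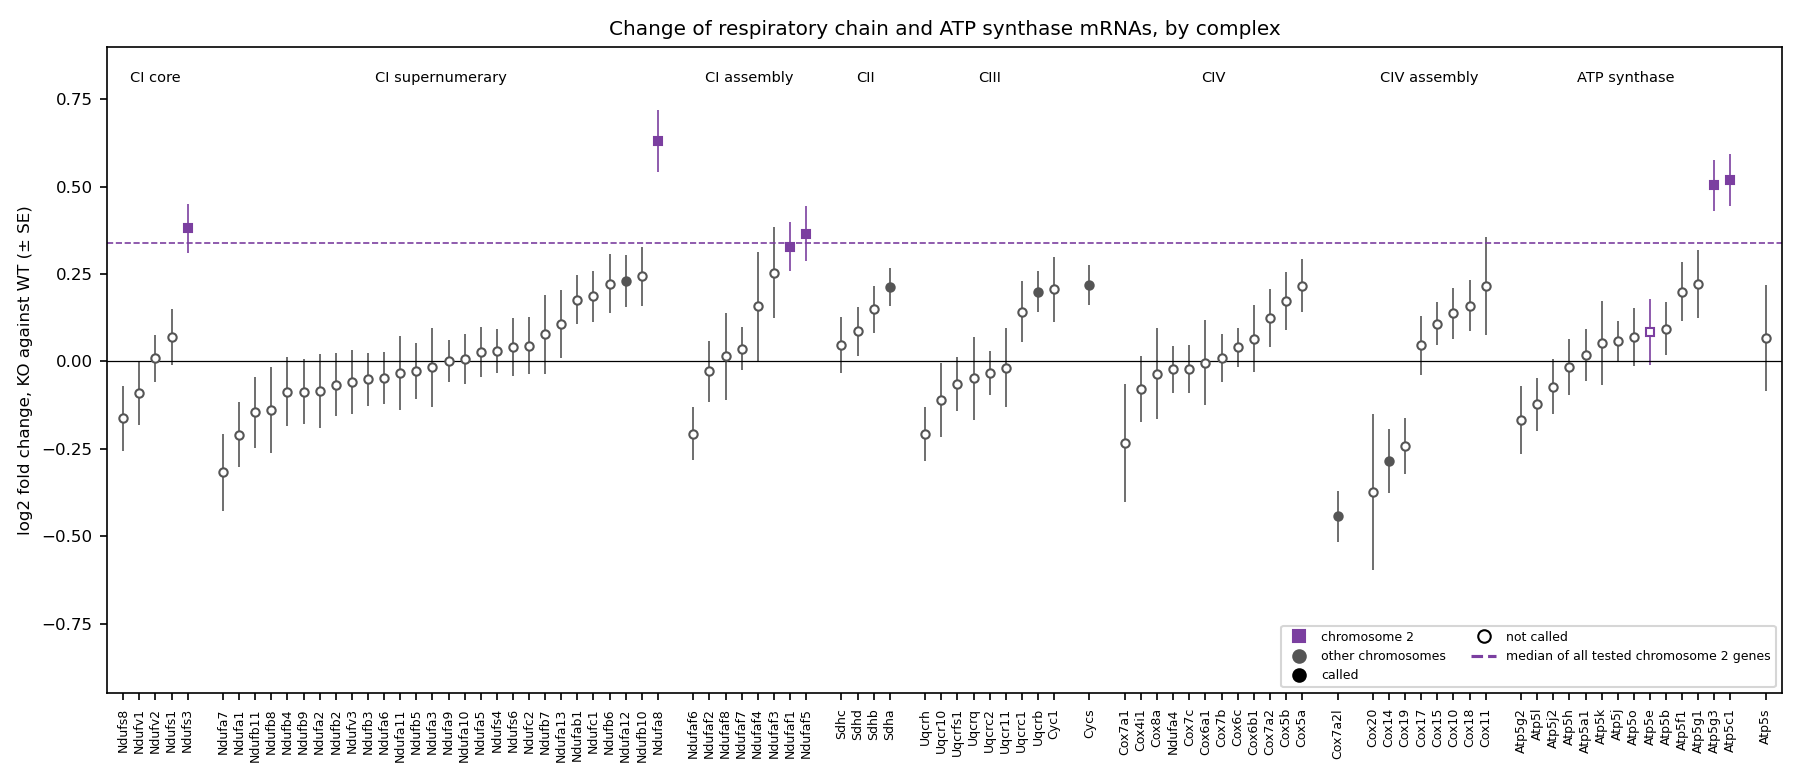
Log2 fold change (KO against WT, ± SE, n = 3 libraries a group) of the tested genes named in the plot, ordered within each complex; filled symbols are called, open symbols are not, and squares lie on chromosome 2. Most genes sit near 0, 6 of the 10 called higher are squares, and the dashed line marks the median of all tested genes on chromosome 2 at 0.34.

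Promoter sequence is shown for 4 of the 12 called genes. These are Cycs, Ndufaf1 and Atp5g3, where a searched motif lay outside annotated exons, and Cox7a2l, which fell most. Windows from 250 bases before to 50 after a RefSeq start on GRCm38.p6 were given for 82 of the 103 genes. They were searched on both strands for motifs of factors known to drive many respiratory chain genes. The motifs were GCGCANGCG (NRF1), CCGGAAG (the ETS factor GABPA), AAGATGGC (YY1) and TCAAGGTCA (the oestrogen-related receptors). Each stretch below lies before the RefSeq start, outside every GENCODE exon, and is written 5′ to 3′ on the gene's strand, with motif matches in capitals. All 4 genes lie on the minus strand, at chr6:50566570-50566642, chr2:119662835-119663084, chr2:73911327-73911576 and chr17:83514334-83514583 in that order.
Cycs: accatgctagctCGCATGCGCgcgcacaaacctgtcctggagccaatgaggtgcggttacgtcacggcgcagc
Ndufaf1: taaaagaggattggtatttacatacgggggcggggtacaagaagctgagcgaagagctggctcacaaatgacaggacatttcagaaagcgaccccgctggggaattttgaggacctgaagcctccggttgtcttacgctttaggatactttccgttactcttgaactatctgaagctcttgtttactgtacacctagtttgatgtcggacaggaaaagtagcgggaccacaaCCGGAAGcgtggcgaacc
Atp5g3: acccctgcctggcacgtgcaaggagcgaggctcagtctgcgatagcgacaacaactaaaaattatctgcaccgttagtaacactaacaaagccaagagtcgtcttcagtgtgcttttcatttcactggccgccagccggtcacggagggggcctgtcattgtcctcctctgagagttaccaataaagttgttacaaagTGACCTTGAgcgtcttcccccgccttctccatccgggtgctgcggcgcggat
Cox7a2l: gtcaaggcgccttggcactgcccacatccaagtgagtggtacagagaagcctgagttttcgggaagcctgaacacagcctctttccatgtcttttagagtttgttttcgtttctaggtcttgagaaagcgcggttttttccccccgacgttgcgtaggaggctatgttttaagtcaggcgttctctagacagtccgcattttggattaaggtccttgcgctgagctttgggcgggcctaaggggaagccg
The capitals mark an NRF1 match in Cycs, an ETS match in Ndufaf1 and a receptor match in Atp5g3, where the match is on the opposite strand, as it is in Cycs. The 250 bases before the Cox7a2l start held no match, and they lie in an intron of a longer annotated transcript of the gene. The Cycs stretch is 73 bases long, and those of Ndufaf1, Atp5g3 and Cox7a2l are 250. Among the called genes not printed, Ndufs3, Ndufa8, Ndufaf5, Sdha and Atp5c1, which rose, had no match in the longest such stretch. Those stretches were only 62, 51, 81, 82 and 82 bases long in that order. Cox14, which fell, had no match in 250 bases. The full windows of these genes did hold NRF1 or ETS letters, as listed below.

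The NRF1 letters were present in 28.0% of the 82 member windows (23 genes), in 16.8% of the windows of tested genes and in 7.03% of all windows. The ETS letters were present in 28.0% of member windows (23 genes), 22.5% of those of tested genes and 9.93% of all. YY1 letters were found in 14.6% of member windows (12 genes), against 6.02% of tested genes. The receptor letters were found in 2 member windows (2.44%), those of Sdhd and Atp5g3, and in 0.342% of those of tested genes. Of the 11 called genes with a window, 6 held the NRF1 letters (Ndufa8, Ndufaf5, Sdha, Cycs, Atp5c1 and Atp5g3). The ETS letters were in 3 (Ndufs3, Ndufaf1 and Cox14), the receptor letters in 1 and the YY1 letters in 0. Among these genes Cox14 fell and the others rose, and Ndufs3, Ndufa8, Ndufaf1, Ndufaf5, Atp5c1 and Atp5g3 lie on chromosome 2. A match describes the letters of a window and does not show that a factor binds there.

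Complex I, which oxidises NADH, had 34 tested subunit genes of 36, and 3 rose (8.82%, against 13.5% of all tested genes). Its core subunits carry the flavin and the iron-sulfur clusters, while the supernumerary subunits surround that core. Among 6 tested core genes only Ndufs3 was called, and the median log2 fold change was -0.04. Among 28 tested supernumerary genes Ndufa8 and Ndufa12 were called, with a median of -0.01. Summed over all its subunit genes, complex I mRNA stood at 3356, 3038 and 3056 CPM in WT and at 3217, 3306 and 2963 CPM in KO, so the groups overlapped.

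Ndufs3 (ENSMUSG00000005510.9, chr2:90894634-90904827) encodes a core subunit of the arm that faces the matrix. It stood at 99.4, 88.2 and 93.1 CPM in the WT libraries and at 118, 129.5 and 118 CPM in the KO libraries. Every KO value lay above every WT value. The mean rose from 93.6 ± 5.60 to 122 ± 6.50 CPM, a log2 fold change of 0.38 ± 0.07 (adjusted p = 0.00547). The other tested core genes had log2 fold changes of -0.16 (Ndufs8) to 0.07 (Ndufs1).

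Ndufa8 (ENSMUSG00000026895.7, chr2:36036326-36049406) encodes a supernumerary subunit on the side of the intermembrane space. It had the largest log2 fold change of the tested members. Its level was 88.2, 76.3 and 74.5 CPM in WT and 124, 133 and 114 CPM in KO. The lowest KO library thus stood above the highest WT library. The mean rose from 79.7 ± 7.42 to 124 ± 9.62 CPM, 1.55-fold, with a log2 fold change of 0.63 ± 0.09 (adjusted p = 0.00145). Ndufa12 (ENSMUSG00000020022.17, chr10:94198720-94221443), a supernumerary subunit added late in assembly, stood at 72.7, 64.7 and 67.5 CPM in WT and 84.4, 81.6 and 74.8 CPM in KO. The groups did not overlap, but the gap between the highest WT and the lowest KO library was small. Its log2 fold change was 0.23 ± 0.08 and its adjusted p of 0.0497 lay at the threshold. Without any of the 5 libraries other than WT replicate 1 this call was lost, with adjusted p of 0.0507 to 0.177.

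The other 26 tested supernumerary genes were not called. Their log2 fold changes ran from -0.32 in Ndufa7 to 0.24 in Ndufb10. Ndufa7 stood at 102, 86.0 and 85.4 CPM in WT and 79.3, 77.3 and 62.7 CPM in KO, without overlap but above the threshold (adjusted p = 0.0627). Ndufb10 stood at 74.8, 64.0 and 63.5 CPM in WT and 82.8, 81.8 and 74.9 CPM in KO (adjusted p = 0.0611). Its lowest KO library lay just above its highest WT library. Ndufc2 and Ndufb3 were the most abundant supernumerary mRNAs per length, at 123 and 121 CPM per kilobase. Neither was called, with log2 fold changes of 0.05 for Ndufc2 and -0.05 for Ndufb3.

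Assembly factors named Ndufaf build complex I without remaining in it. All 8 were tested, 2 rose (25.0%, against 13.5% of all tested genes) and the median log2 fold change was 0.10. Both that rose lie on chromosome 2, where 58.3% of all tested genes were called higher. Ndufaf1 (ENSMUSG00000027305.9, chr2:119655446-119662827) acts on an intermediate of the membrane arm, and its promoter is printed above with an ETS match. It stood at 33.5, 37.3 and 36.3 CPM in WT and at 45.3, 43.3 and 46.2 CPM in KO, well apart. The log2 fold change was 0.33 ± 0.07 (adjusted p = 0.00999). Ndufaf5 (ENSMUSG00000027384.6, chr2:140170649-140203689) modifies the core subunit Ndufs7. It stood at 21.4, 23.4 and 21.1 CPM in WT and at 28.9, 29.7 and 26.7 CPM in KO. Here too the groups were apart, with a log2 fold change of 0.37 ± 0.08 (adjusted p = 0.010), and an adjusted p of 0.0518 without KO replicate 1. Ndufaf6, at 14.1, 15.1 and 13.8 CPM in WT and 12.5, 12.01 and 12.5 CPM in KO, was the lowest of the 8 by log2 fold change (-0.21 ± 0.08, adjusted p = 0.0750). Ndufaf2 shares 65.7% of its exons with another gene model, so its reads (13.1 ± 0.53 CPM in WT, 12.9 ± 1.1 in KO) cannot be assigned with certainty.

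Complex II oxidises succinate in the citric acid cycle and feeds its electrons to ubiquinone, and all its subunits are nuclear. The median log2 fold change of its 4 genes was 0.12, and Sdha was called higher (25.0%, against 13.5% of all tested genes). All 4 values were positive, except that Sdhc turned to -0.02 with quantile normalization or without KO replicate 2. Sdha (ENSMUSG00000021577.14, chr13:74322254-74350280) encodes the flavoprotein that binds succinate. It was listed at 307, 311 and 312 CPM in WT and at 353, 362 and 365 CPM in KO. The spread within each group was small and the groups were apart. The mean rose from 309.9 ± 2.84 to 359.6 ± 6.24 CPM, 1.16-fold, with a log2 fold change of 0.21 ± 0.05 (adjusted p = 0.0199). Without any of the 5 libraries other than WT replicate 1, the adjusted p of Sdha was 0.0602 to 0.0716. Sdhb, the iron-sulfur subunit, stood at 127, 116 and 120 CPM in WT and 132, 142 and 128 CPM in KO (log2 fold change 0.15 ± 0.07, adjusted p = 0.132). The membrane anchors Sdhc and Sdhd had log2 fold changes of 0.05 and 0.09 and overlapping groups. Sdhd was the most abundant of the 4 per length, at 192 CPM per kilobase, followed by Sdhc at 90.2.

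Complex III passes electrons from ubiquinol to cytochrome c. Of its 9 nuclear genes, all tested, Uqcrb was called higher (11.1%, against 13.5% of all tested genes). The median log2 fold change was -0.03. Uqcrb (ENSMUSG00000021520.4, chr13:66900617-66905378), a small supernumerary subunit, stood at 85.8, 86.1 and 90.7 CPM in WT and 103, 99.7 and 98.7 CPM in KO. The KO values were close together and above all WT values. Its log2 fold change was 0.20 ± 0.06 (adjusted p = 0.0354), and without any of the 5 libraries other than WT replicate 1 the adjusted p was 0.0658 to 0.133. Cyc1, the cytochrome c1 subunit, stood at 135, 112 and 116 CPM in WT and 134, 153 and 130.5 CPM in KO. WT replicate 1 lay above the lowest KO library, and Cyc1 was not called (log2 fold change 0.21 ± 0.09, adjusted p = 0.137). Uqcrh, the hinge subunit between cytochrome c1 and cytochrome c, had the most negative value of the complex. It stood at 173, 162 and 155 CPM in WT and 148, 147 and 129 CPM in KO, without overlap (log2 fold change -0.21 ± 0.08, adjusted p = 0.0775). Uqcr10 and Uqcrh were the most abundant per length, at 132 and 123 CPM per kilobase, and Uqcr10 was not called either.

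Cytochrome c carries electrons from complex III to complex IV and is released from mitochondria in apoptosis. Its somatic gene Cycs (ENSMUSG00000063694.5, chr6:50562563-50566538) was listed at 144, 141 and 150 CPM in WT and at 172, 169.6 and 165 CPM in KO. The groups were apart by more than the range of either. Processed copies of Cycs are common in the mouse genome, and the authors' counting could split reads between them. The mean rose from 145 ± 4.49 to 169 ± 3.51 CPM, 1.16-fold, with a log2 fold change of 0.22 ± 0.06 (adjusted p = 0.0226). On chromosome 6 the median over all 520 tested genes was -0.16, and over the 5 respiratory chain genes there it was 0.00. Without any of the 5 libraries other than WT replicate 1, the adjusted p of Cycs was 0.0515 to 0.0936.

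Complex IV reduces oxygen to water. Of its 19 nuclear subunit genes, counted with Ndufa4 and its paralog Ndufa4l2, 12 were tested, with a median log2 fold change of 0.00. Limma called 0 of the 12, against 30.4% of all tested genes. At an unadjusted p under 0.05 there was 1 gene, Cox5a, whose product is a matrix-side subunit. On recovered whole reads edgeR called 0 of the 12 and DESeq2 1, Cox5a (adjusted p = 0.0369). Without WT replicate 1 limma called 2 higher, Cox5a (adjusted p = 0.021) and Cox5b (adjusted p = 0.0285). Cox5a stood at 274, 243 and 253 CPM in WT and at 295, 320.1 and 281 CPM in KO, without overlap (log2 fold change 0.22 ± 0.08, adjusted p = 0.0609). Cox4i1, the most abundant per length at 309 CPM per kilobase, stood at 539, 461 and 475 CPM in WT and 487, 498 and 414 CPM in KO, with the groups interleaved. Cox8a, next at 292 CPM per kilobase, had a log2 fold change of -0.03 ± 0.13. Summed over its nuclear subunits, complex IV mRNA stood at 2392, 2097 and 2109 CPM in WT and 2285, 2394 and 2084 CPM in KO.

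Several complex IV subunits exist as forms from separate genes, with a form known from muscle, lung or testis beside the common one. In these cells the common form held nearly all of the mRNA. Per kilobase, Cox4i2 made up 0.00958% of the Cox4i pair in WT and 0.00632% in KO, with at most 3 reads in a library. The heart and muscle form Cox6a2 made up 0.186% ± 0.0635 of its pair in WT and 0.234% ± 0.0266 in KO. Cox7a1, also a heart and muscle form, was the largest minor share. It made up 6.20%, 5.24% and 5.03% of the Cox7a1 and Cox7a2 pair in WT and 4.88%, 4.27% and 3.57% in KO. Those groups did not overlap, although Cox7a1 itself was not called (log2 fold change -0.23 ± 0.17, adjusted p = 0.337). Cox6b2 and Ndufa4l2 had 0 to 5 reads in a library and Cox8b 0 to 1. A count of 0 reads in a library allows up to 0.0426 to 0.0594 CPM, counting error only.

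Cox7a2l (ENSMUSG00000024248.14, chr17:83501918-83517330), named for its likeness to Cox7a2, is described as encoding a factor that joins complexes III and IV into supercomplexes. Whether its product does so in these cells was not tested. Cox7a2l had the largest fall of the tested members. Its level was 359, 334 and 365 CPM in WT and 262, 277 and 240.2 CPM in KO. The highest KO library lay well under the lowest WT library. The mean fell from 353 ± 16.6 to 259.7 ± 18.5 CPM, to 0.736 of the WT level, with a log2 fold change of -0.44 ± 0.07 (adjusted p = 0.00310). It stayed called lower under all 23 alternatives that could test it. Cox7a2, its relative in complex IV, stood at 115, 100.4 and 97.5 CPM in WT and 112, 121 and 107 CPM in KO. That difference had the opposite sign and was not called (log2 fold change 0.12 ± 0.08, adjusted p = 0.295).

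Complex IV assembly factors named Cox10 and higher insert haem and copper and stabilise its first intermediates. Of 9 genes, 8 were tested and 1 fell (12.5%, against 16.9% of all tested genes), with a median log2 fold change of 0.08. The gene that fell was Cox14 (ENSMUSG00000023020.2, chr15:99725618-99728136), which binds the newly made first subunit. It stood at 33.8, 29.6 and 29.1 CPM in WT and 23.6, 27.5 and 24.6 CPM in KO. The groups were apart by less than the range within WT. The log2 fold change was -0.28 ± 0.09 with an adjusted p of 0.0480, and 0.0506 to 0.172 when any 1 of the 6 libraries was left out. Cox19, a copper chaperone, stood at 19.8, 19.3 and 17.9 CPM in WT and 16.2, 16.6 and 15.1 CPM in KO, and was not called (adjusted p = 0.0519). Cox10 and Cox15, which make haem A, had log2 fold changes of 0.14 and 0.11 and were not called. Cox20 had 0.64 to 1.96 CPM in a library and shares 91.1% of its exons with the abundant gene Hnrnpu on the opposite strand. Its log2 fold change of -0.37 ± 0.22 had the largest SE of the 92 tested members.

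ATP synthase has a catalytic head, a rotating central stalk and a membrane ring of c subunits. Of its 15 genes 14 were tested and 2 rose (14.3%, against 13.5% of all tested genes), with a median log2 fold change of 0.06. The 2 genes lie on chromosome 2, where 58.3% of all tested genes were called higher. The summed mRNA of ATP synthase stood at 5355, 4952 and 5098 CPM in WT and 5610, 5949 and 5304 CPM in KO. Atp5c1 (ENSMUSG00000025781.14, chr2:10056016-10080510) encodes the gamma subunit, the shaft of the central stalk. It stood at 368, 362 and 380.4 CPM in WT and 558, 557 and 482 CPM in KO. All KO libraries stood above all WT libraries. The mean rose from 370.0 ± 9.62 to 532 ± 43.3 CPM, 1.44-fold, with a log2 fold change of 0.52 ± 0.07 (adjusted p = 0.00158).

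Atp5g3 (ENSMUSG00000018770.9, chr2:73908447-73911326) is one of the Atp5g genes, which encode the same mature c subunit behind different import signals. It stood at 316, 311 and 312 CPM in WT and at 424, 489.6 and 422 CPM in KO, far apart. The mean rose from 313 ± 2.80 to 445 ± 38.5 CPM, 1.42-fold, with a log2 fold change of 0.50 ± 0.07 (adjusted p = 0.00169). Atp5g1 and Atp5g2 were not called. Atp5g1 stood at 88.1, 71.2 and 79.4 CPM in WT and 91.2, 102 and 85.4 CPM in KO, while Atp5g2 stood at 119, 96.9 and 100.2 CPM in WT and 89.9, 103 and 88.5 CPM in KO. Per kilobase, Atp5g3 made up 61.9%, 66.3% and 65.3% of the 3 genes together in WT and 72.9%, 73.2% and 73.4% in KO. The Atp5g2 share was 28.2% ± 1.92 in WT and 20.1% ± 0.0737 in KO, and the Atp5g1 share 7.26% ± 0.470 and 6.77% ± 0.189. These shares share a denominator, and the authors' counting could split reads of similar sequence between the genes.

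The catalytic subunits were the most abundant mRNAs of all members per length. Atp5a1 (alpha) stood at 436 CPM per kilobase and Atp5b (beta) at 367. Atp5b had a mean of 1506 ± 90.5 CPM in WT and of 1606 ± 76.8 CPM in KO, with overlapping groups and a log2 fold change of 0.09 ± 0.08 (adjusted p = 0.387). Atp5a1 had a log2 fold change of 0.02 ± 0.08 (adjusted p = 0.879). The stator subunit Atp5f1 stood at 388, 436 and 469 CPM in WT and 507, 508 and 466 CPM in KO, and was not called (log2 fold change 0.20 ± 0.08, adjusted p = 0.109). The remaining tested subunits, which include Atp5e of the central stalk, had log2 fold changes of -0.12 to 0.08. Atp5s, an ATP synthase coupling factor by name, had a mean of 9.75 ± 2.22 CPM in WT, against 10.1 ± 0.37 CPM in KO, and was not called.

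**Figure D2:**
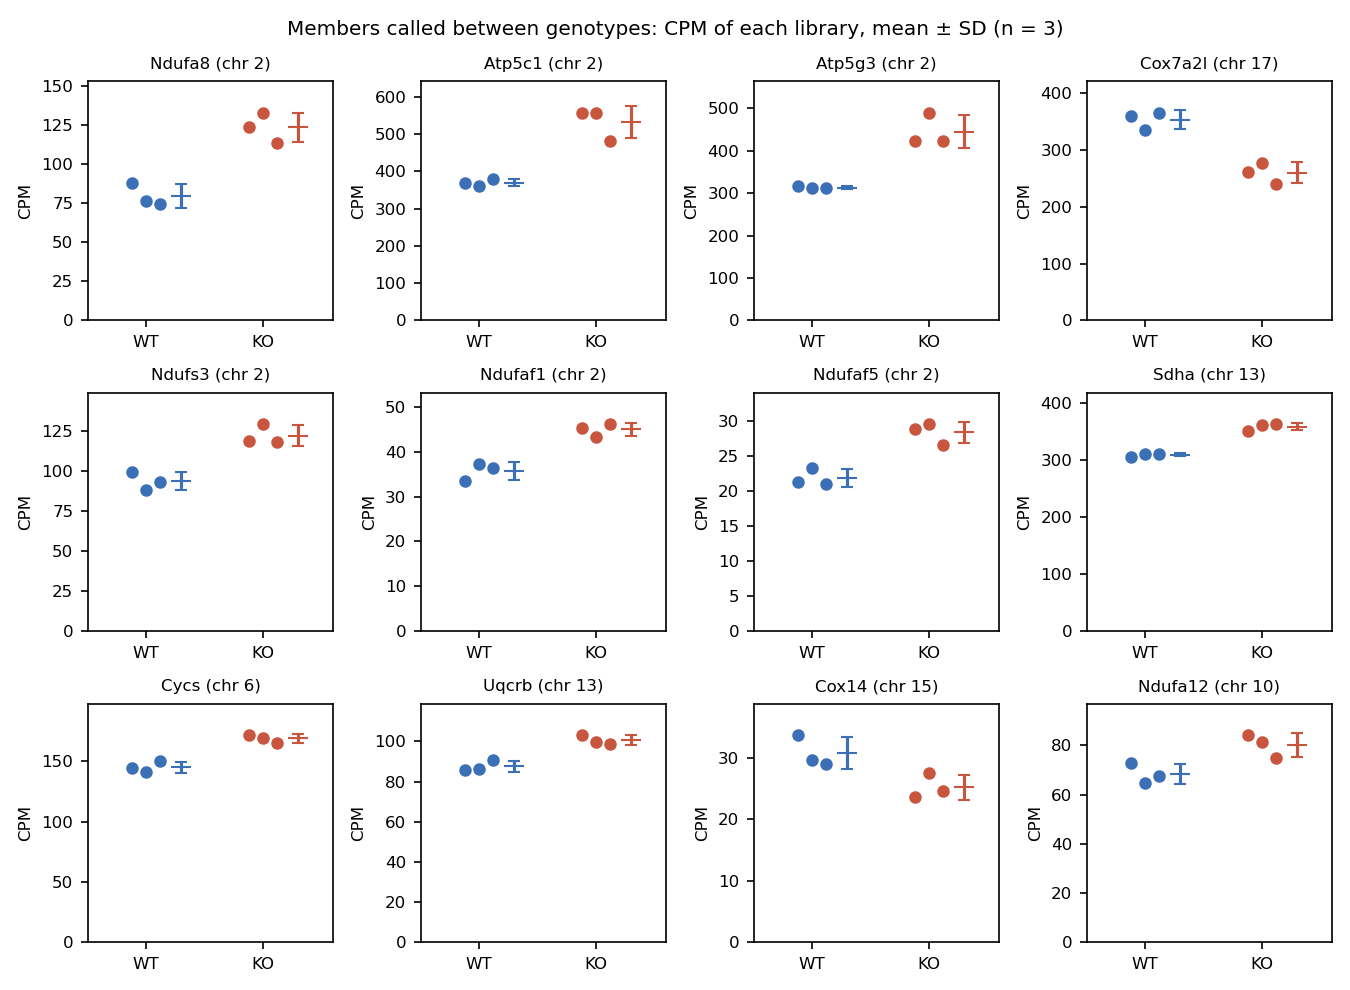
CPM in each of the 6 libraries for the 12 called members; points are libraries, the mark beside them is the mean ± SD (n = 3 libraries a group), and each axis starts at 0. The values of the groups do not overlap in any of the 12 panels, and the gap is narrow for Cox14 and Ndufa12.

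The abundance of the subunits per length differed widely within each complex. The plot of levels per kilobase shows the ATP synthase catalytic subunits at its top, and Cox4i1, Cox8a and Cox6b1 (265 CPM per kilobase) highest in complex IV. Exonic length is the union of the exons of all annotated transcripts, so genes with long minor transcripts are placed too low.

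**Figure D3:**
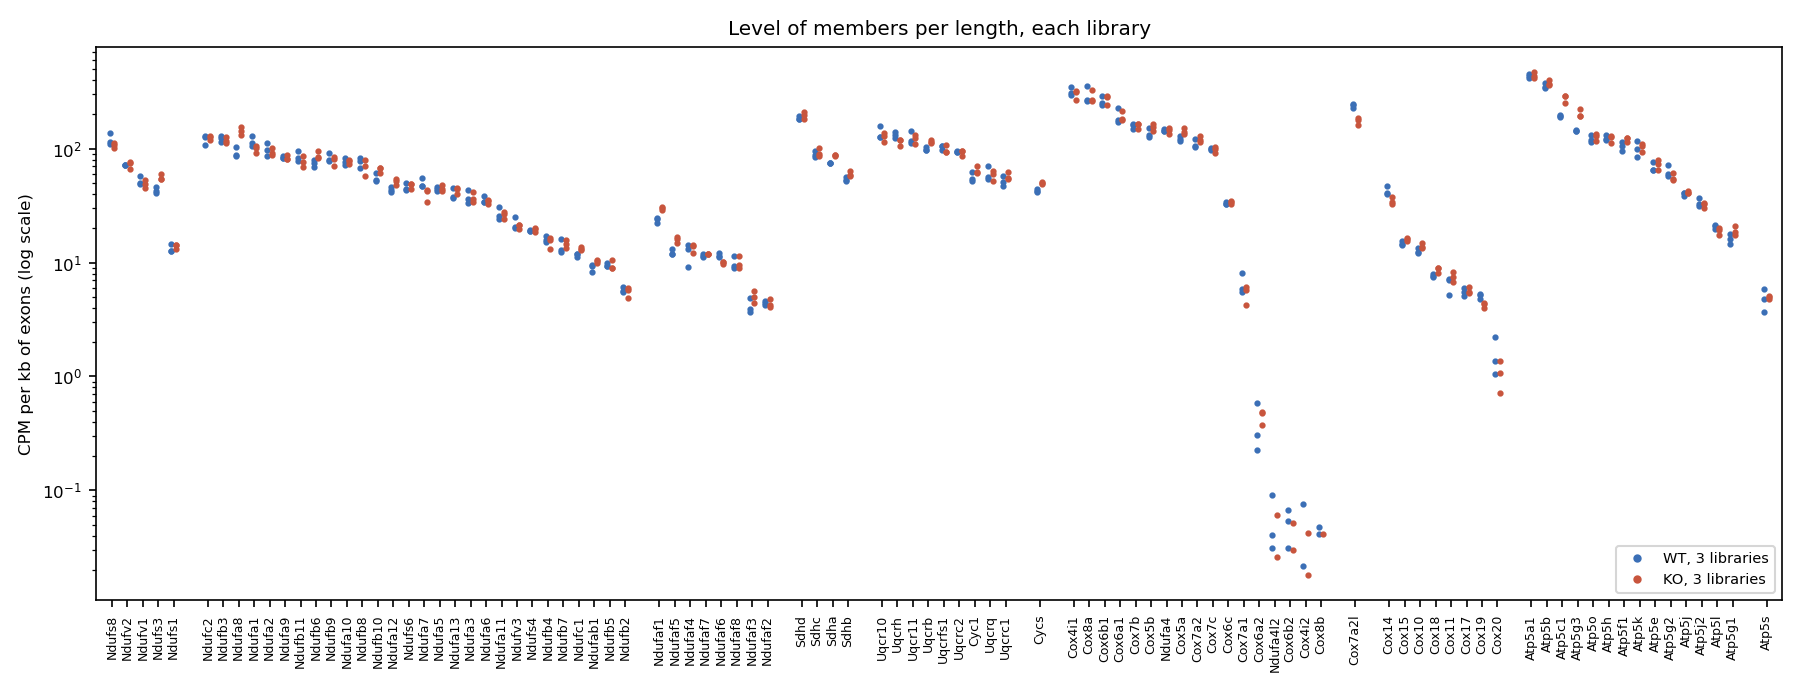
CPM per kilobase of exons (log axis) of the members named in the plot in each library, by complex; blue points are the 3 WT libraries and red points the 3 KO libraries, and libraries at 0 are not drawn. Atp5a1 (mean 436) and Atp5b (mean 367) stand highest, and the points of most genes overlap between genotypes.

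The members were also read by chromosome. On chromosome 2, 503 of all 863 tested genes (58.3%) were called higher in KO, with a median log2 fold change of 0.34. Of the 8 members on this chromosome 7 were tested and 6 rose (Ndufs3, Ndufa8, Ndufaf1, Ndufaf5, Atp5c1 and Atp5g3), with a median of 0.38. The summed level of the 8 was 1060, 1012 and 1032 CPM in WT and 1427, 1521 and 1324 CPM in KO. Measured from the chromosome's median, the log2 fold change was 0.29 for Ndufa8, 0.18 for Atp5c1 and 0.17 for Atp5g3. It was 0.04 for Ndufs3, 0.03 for Ndufaf5, -0.01 for Ndufaf1 and -0.25 for Atp5e. With each chromosome centred on its own median, an alternative chosen after the data were seen, Ndufa8 stayed called (adjusted p = 0.0415). The other 5 were not called there, with adjusted p of 0.12 (Atp5g3) to 0.884 (Ndufaf1). Among the 85 tested members elsewhere in the genome 4 rose (4.71%) and 2 fell (2.35%), and the median was 0.01. All tested genes outside chromosome 2 were called higher in 9.57% and lower in 17.9%. The count of 4 was 20 (23.5%) with a trend in length and GC content removed, 10 (11.8%) without WT replicate 1 and 9 (10.6%) with DESeq2. Over all tested genes, chromosome 2 included, the shares called higher in these runs were 27.8%, 15.8% and 17.6%. The cause of the shift of chromosome 2 was not tested.

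The libraries of a group also differed among themselves in these genes. WT replicate 1 was above the WT mean for 68 of the 92 tested members, with a median difference of 0.09 on the log2 scale. For WT replicates 2 and 3 the counts were 28 and 19, with medians of -0.04 and -0.05. KO replicates 1, 2 and 3 were above the WT mean for 59, 70 and 35 members, with medians of 0.06, 0.08 and -0.05. WT replicate 1 and KO replicates 1 and 2 were therefore high and the other libraries low. By complex, the libraries' medians ran from -0.036 to 0.060 in WT and from 0.069 to 0.172 in KO for the Ndufaf factors. Of these factors Ndufaf1 and Ndufaf5 lie on chromosome 2. For complex II the genotypes nearly met but did not overlap, at -0.041 to 0.027 in WT and 0.030 to 0.204 in KO. The medians overlapped for the subunits of complexes I, III and IV and of ATP synthase, and for the complex IV assembly factors. Without WT replicate 1 the count of higher calls was 16 in place of 10 (17.4%, against 15.8% of all genes then tested), and without any other library it was 5 or 6.

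**Figure D4:**
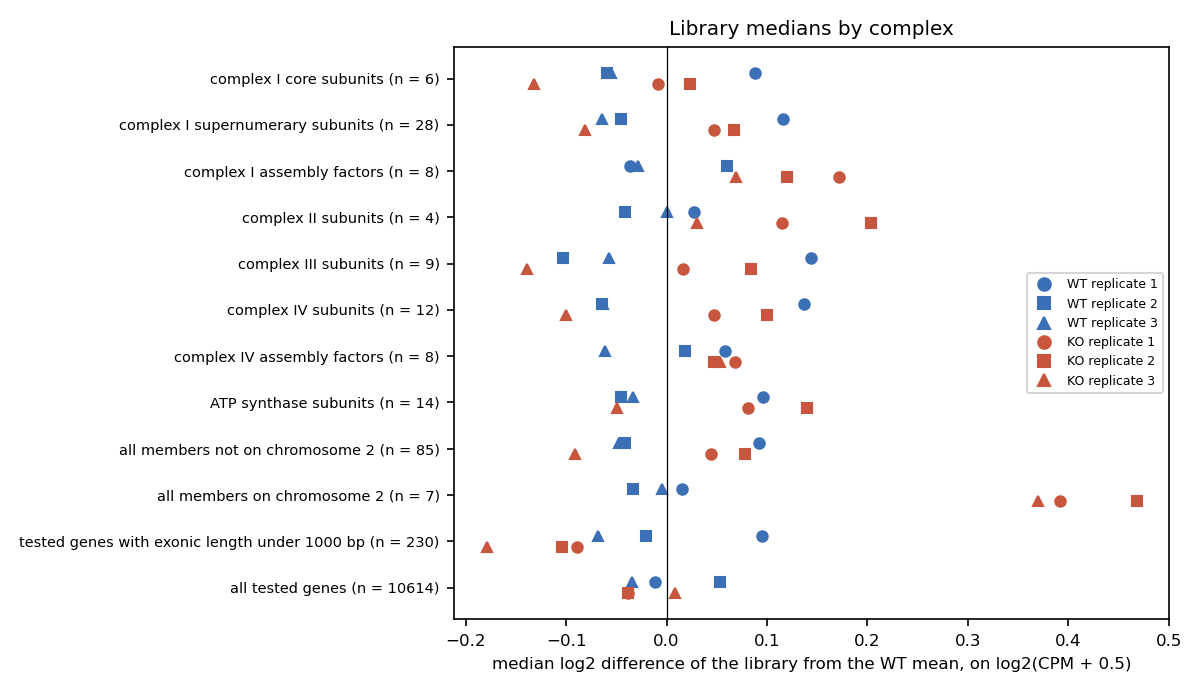
Median over the members of each complex of the log2 difference from the WT mean, for each of the 6 libraries (blue WT, red KO, marker shape the replicate), with 4 comparison rows at the bottom. WT replicate 1 is the highest library for complexes III and IV and for both groups of complex I subunits, and the members on chromosome 2 stand apart between the genotypes.

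Many of these mRNAs are short, and short genes as a whole moved between the libraries. The median exonic length was 1808 bases over the tested members and 4522 over all tested genes. Over the 230 tested genes with under 1000 bases of exons, the libraries' median log2 distance to the WT mean was 0.095, -0.02 and -0.07 in WT and -0.09, -0.10 and -0.18 in KO. With a trend in length and GC content removed from each library, 26 members were called higher and 2 lower, with a median log2 fold change of 0.10. These are 28.3% and 2.17% of the members, against 27.8% and 20.2% of all genes in that fit, so the higher calls were at the general share. Complex IV then had 3 higher calls (25.0% of its tested subunit genes). The ribosomal RNA precursor Rn45s took 0.381% to 2.75% of the reads in WT and 0.542% to 1.40% in KO, and without it 9 members were called higher and 4 lower.

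The members that could not be tested were 11. Of these 5 had a few reads (Cox4i2, Cox6a2, Cox6b2, Cox8b and Ndufa4l2, all described above). The other 6 were listed at 0 in all libraries: Ndufs5, Ndufs7, Atp5d, Cox16, Cox7b2 and Cox8c. Cox7b2 and Cox8c are testis forms of complex IV subunits. By contrast, Ndufs7 and Ndufs5 of complex I and Atp5d, the delta subunit of the ATP synthase stalk, belong to complexes that every respiring cell uses. Atp5d and Ndufs7 lie in a run of 45 neighbouring protein-coding genes on chromosome 10, from 79704491 to 80365489, that are all listed at 0. The run holds Rps15, Gpx4, Polr2e and Ptbp1, which nearly all cells express. Cox16 lies in a run of 4 such genes and shares 56.8% of its exons with another gene model. Among the 20615 listed protein-coding genes, 5025 (24.4%) were at 0 throughout. A value of 0 for these genes is therefore given as listed, not as a level. Of all members, 15 share at least 10% of their exons with another gene model, and none of the 12 called genes is among them.

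Other genes of the pathway were read from lists by function. Of 35 assembly factors with other names 32 were tested, with a median log2 fold change of -0.03. Of these 3 rose (9.38%) and 1 fell (3.13%), against 13.5% and 16.9% of all tested genes. Uqcc1, which helps to make the cytochrome b of complex III, stood at 41.9, 39.8 and 40.8 CPM in WT and 59.4, 59.2 and 59.1 CPM in KO. The groups were far apart, with a log2 fold change of 0.53 ± 0.06 (adjusted p = 0.000459), and Uqcc1 lies on chromosome 2. Surf1, a complex IV factor on the same chromosome, rose by 0.30 (adjusted p = 0.0230), and Coa5 by 0.25 (adjusted p = 0.0486). Sdhaf1, which inserts iron-sulfur clusters into Sdhb, stood at 25.3, 24.2 and 21.4 CPM in WT and 17.8, 17.1 and 14.8 CPM in KO. It fell by 0.50 on the log2 scale (adjusted p = 0.00724), and its groups did not overlap. Sdhaf1 shares 69.6% of its exons with E130208F15Rik on the opposite strand, so its reads cannot be assigned with certainty. Ecsit and Sco2 were listed at 0.

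Of 13 tested regulators of respiratory chain genes 1 rose (7.69%, against 13.5% of all tested genes). Gabpb1, the partner of the ETS factor GABPA, stood at 27.6, 36.5 and 31.8 CPM in WT and 39.3, 39.5 and 39.9 CPM in KO, at the threshold (log2 fold change 0.31 ± 0.10, adjusted p = 0.050), and lies on chromosome 2. Gabpa itself, Nrf1, Yy1, Esrra and Tfam had log2 fold changes of -0.06 to 0.09 and were not called. The coactivator Ppargc1a was under the filter, with 18, 27 and 26 reads in WT and 2, 0 and 1 in KO. Its relatives Ppargc1b and Pprc1, at 23.0 and 114 CPM in WT, were not called. Atpif1, Usmg5 and 2010107E04Rik, further ATP synthase proteins, had no call by limma and none at an unadjusted p under 0.05, with log2 fold changes of -0.16 to 0.18.

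Of the 13 genes of coenzyme Q synthesis, which make the ubiquinone that complexes I and II reduce, 8 were called, 3 higher (23.1%) and 5 lower (38.5%), against 13.5% and 16.9% of all tested genes. Coq8a, an atypical kinase of the pathway, stood at 23.3, 20.9 and 21.6 CPM in WT and 7.83, 7.65 and 7.38 CPM in KO. The KO libraries lay far under the WT libraries, at 0.347 of the WT mean, with a log2 fold change of -1.47 ± 0.08 (adjusted p = 9.61e-06). Coq2, which joins the ring to the tail, fell by 0.46 on the log2 scale (adjusted p = 0.00663). Pdss1, which makes the tail, rose by 0.70 (adjusted p = 0.000842) and Coq4 by 0.65 (adjusted p = 0.00229). Both of these lie on chromosome 2, and Coq4 shares 27.1% of its exons with Trub2 on the opposite strand.

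Of 11 genes of protein import and outer membrane channels 4 rose (36.4%) and 1 fell (9.09%), beside the same 13.5% and 16.9% of all tested genes. Vdac2, an outer membrane channel, stood at 420.5, 416 and 438 CPM in WT and 508, 542 and 516 CPM in KO, with a log2 fold change of 0.30 ± 0.06 (adjusted p = 0.00751). Timm17a of the inner membrane translocase rose by 0.23 (adjusted p = 0.0194) and Vdac3 by 0.26 (adjusted p = 0.0209). Tomm20, a receptor of the outer membrane translocase, fell by 0.25 on the log2 scale (adjusted p = 0.0238). The mRNAs of mitochondrial DNA were not analysed here.

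Ribosomal protein genes, which are also short, were set beside the members as a description. Of 78 tested mitochondrial ribosomal protein genes 7 were called higher and 6 lower (16.7% called), with a median log2 fold change of 0.00. Of 78 tested cytosolic ones 1 was called higher and 53 lower (69.2% called), with a median of -0.33. The general share of calls was 30.4% (13.5% higher, 16.9% lower). The mitochondrial list lay under this general share and the cytosolic list above it. Whether the lists differ from each other was not tested, because genes of a list are not replicates.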

How the data were processed

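Poly(A) RNA of 3 WT and 3 KO plates was sequenced as 125-nucleotide read pairs, per the labels' protocols. The submitters' processing notes name STAR 2.6.0a, Trim Galore, FastQC, SAMtools and Picard, and the build mm10. Duplicates had been removed, per the file headers. The program that counted reads, its gene models and its strand setting are not stated in these sources. The authors' deposited values are CPM, for 24848 gene symbols.

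All values were whole multiples of a single read (tolerance 0.01 read), so reads were recovered. Removing duplicates can lower the values of abundant short mRNAs most. Log2(CPM + 0.5) was fitted with limma 3.58.1 (R 4.3.3, mean-variance trend, no covariates). edgeR 4.0.16, DESeq2 1.42.0, other filters, scalings, a replicate block and leaving out each library were alternatives. Centring each chromosome was added after the data were seen. Lengths, overlaps and positions come from GENCODE M21, which holds all 103 members.

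Members and lists were chosen with earlier results of these data known. Named genes are, in each complex, the called members, the 2 most abundant per length, listed paralogs and genes at 0, and in other lists up to 4 called genes by adjusted p. Other members are named to account for the range of each complex, and neighbours of members listed at 0 were picked after seeing the values. Some values that this rule selects are not reported here, nor drawn. The fit was tested on simulated data.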

Additional observations from a re-analysis of the deposited data

How the results depend on the processing

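Over all tested genes limma called 3230, and the respiratory chain and ATP synthase genes had 10 higher and 2 lower calls. The higher count was 5 with a replicate block, 26 after removing the length and GC trend and 3 without the genes of chromosome 2. The lower count was 1 with no filter on low values, TMM scaling, libraries centred on their medians, the replicate block, edgeR, DESeq2 or without chromosome 2, and 4 when rescaled without Rn45s. Over all genes the count was 2009 with the block, 5074 after removing that trend and 2091 without genes that overlap another gene. Leaving out 1 library at a time gave 1918 to 3527 called genes, 5 to 16 higher members and 1 lower member each time. The low of 5 came without KO replicate 1 and the high of 16 without WT replicate 1. The median log2 fold change of the members stayed between -0.001 and 0.10 over the alternatives run, with its lowest value without KO replicate 2. Fewer samples or fewer genes enter the runs that leave out a library, chromosome 2 or overlapping genes. For the other settings the cause was not tested. Cox7a2l and Ndufa8 kept their calls under every alternative that could test them. Ndufs3, Atp5c1 and Atp5g3 lost theirs when each chromosome was centred. Ndufaf1 lost its call there and with the block, and Ndufaf5 there and without KO replicate 1. Cox14 kept its call under 6 of 23 alternatives and Ndufa12 under 8 of 23. Sdha kept it under 16 of 23, Cycs under 15 of 23 and Uqcrb under 13 of 22. Besides the runs without a library, these 3 were lost with quantile normalization and the replicate block, Cycs also after removing the length and GC trend, and Uqcrb also with libraries centred on their medians and with no mean-variance trend. Replicate numbers gave no pairing. The deviations of same-numbered WT and KO libraries from their group means correlated at -0.25, -0.64 and -0.17 across genes. No library correlated best with its own number. Pairs of unlike number ran from -0.44 (WT replicate 1 with KO replicate 3) to 0.61 (WT replicate 2 with KO replicate 3). Depth limits the genes under 1 CPM, where a few reads decide the value.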
